A study of Mus musculus with 6 samples.

Results

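Messenger RNA levels of 10 genes whose products cut tRNA, trim its ends, protect it by methylation or restrain the cutting enzymes were examined in mouse macrophages in which a tRNA fragment had been blocked. The genes were chosen by their symbols, namely Ang, Rnase4, Rnh1, Rnaset2a, Rnaset2b, Dicer1, Elac1, Elac2, Nsun2 and Trdmt1, and all 10 had a row among the 41549 genes of the expression table. Rnh1 encodes an inhibitor, and Nsun2 and Trdmt1 encode methyltransferases, so these 3 are not nucleases themselves. The samples were 6 libraries of wild-type bone marrow-derived macrophages (BMDMs) from C57Bl/6 N mice aged 10 to 12 weeks. Marrow cells were grown for 7 days with macrophage colony-stimulating factor (M-CSF), transfected with an antisense oligonucleotide, and polarized for 48 h with IL-4 and IL-13 into anti-inflammatory M2 Mφs. The αGlu group (n = 3) received an antisense against 5′tRF-Glu(CTC), a fragment from the 5′ end of glutamate tRNA, and the Ctr group (n = 3) a control antisense, so that transfection and cytokines were common to both. The model is a culture of primary cells, and the labels do not say whether marrow of several mice was pooled. The comparison asked whether blocking the fragment in M2 Mφs went along with other transcript levels of the enzymes that make or prevent such fragments.

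Angiogenin, the product of Ang, is a secreted ribonuclease of the RNase A family that enters cells and cuts mature tRNAs in the anticodon loop during stress, which releases 5′ and 3′ tRNA fragments. In resting cells it is held in a tight complex by ribonuclease inhibitor, the product of Rnh1, and methylation of tRNA cytosines by NSUN2 and TRDMT1 (also called DNMT2) protects many tRNAs from it. RNase 4 is a relative of angiogenin encoded by the neighbouring gene, RNase T2 is an endolysosomal nuclease that digests RNA, Dicer cuts double-stranded precursors of small RNAs and has been linked to some tRNA fragments, and the ELAC proteins (tRNase Z) remove the 3′ trailer of newly made tRNA. Macrophages are rich in secreted and lysosomal ribonucleases of these families.

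The blocked fragment and the antisense are shown because they define the intervention. The target is the sequence that the custom inhibitor was designed against, and the capitals mark bases 2 to 21, which pair with the antisense of 20 nt.
target in 5′tRF-Glu(CTC): tCCCTGGTGGTCTAGTGGTTA
antisense (αGlu): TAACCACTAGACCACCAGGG
Both are in the 5′ to 3′ direction. The libraries, which hold messenger RNA, do not measure the fragment.

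Ang and Rnase4 overlap in the genome, and the stretch before a start annotated for both is shown because their levels are compared in detail. In the mouse build GRCm38, Ang lies on the plus strand at chr14:51091150-51102009 within Rnase4 at chr14:51091077-51106151. RefSeq (GRCm38.p6) places a transcript start of both genes at the same base. In GENCODE, the source of the positions above, Ang begins after this base. RefSeq also has another start of Rnase4, with its window at chr14:51095750-51096049, which is not shown. The 250 bases before the common start, at chr14:51090827-51091076 on the plus strand, read as follows.
Ang and Rnase4: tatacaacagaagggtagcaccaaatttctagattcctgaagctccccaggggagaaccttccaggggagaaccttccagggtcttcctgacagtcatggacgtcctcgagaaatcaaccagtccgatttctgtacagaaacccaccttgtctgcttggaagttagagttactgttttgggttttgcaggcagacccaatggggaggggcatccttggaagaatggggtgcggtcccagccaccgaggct
Rnh1 (chr7:141160326-141172857, minus strand) is shown for comparison as the gene of the inhibitor, with the 250 bases before its upstream start at chr7:141172852-141173101 on the minus strand and an E-box in capitals.
Rnh1: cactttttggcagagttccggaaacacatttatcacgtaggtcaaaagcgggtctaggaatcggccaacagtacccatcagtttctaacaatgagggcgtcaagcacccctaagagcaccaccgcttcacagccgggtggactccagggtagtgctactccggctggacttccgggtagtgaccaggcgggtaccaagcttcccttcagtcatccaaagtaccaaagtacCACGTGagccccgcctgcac
A window of 300 bases around the start (250 before, 50 after) was searched on both strands for 5 motifs. The E-box CACGTG was found in 7.15% of 32817 windows, TATAAA in 13.6%, the STAT6-type letters TTCNNNNGAA in 6.94%, the NF-κB-type letters GGGANNTTCC in 1.47% and the IRF-type letters GAAANNGAAA in 3.43%. None of these 5 was found in the windows of Ang and Rnase4, which says only that these letters are not there. The E-box of Rnh1 begins 20 bases before the start, and a window at another Rnh1 start holds TATAAA 188 bases before it. These matches are descriptions of sequence, not binding sites. RefSeq windows were matched for 9 of the 10 genes, which gave 13 windows, 12 of them distinct.

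The libraries held 17912831 to 30386653 exon reads, and the 10 genes together took 0.0631% to 0.0888% of them. All 8 macrophage markers were above 1 CPM (reads scaled to library size, here with TMM factors) in the mean of the libraries, with Lyz2 the highest and Mertk the lowest. One library stood apart. Across the genes tested, log2 CPM of αGlu 1 correlated with αGlu 2 and αGlu 3 at a Pearson r of 0.929 and 0.929 and with the Ctr libraries at 0.966 to 0.982, while αGlu 2 and αGlu 3 correlated at 0.992. Results for the 10 genes are therefore given with and without αGlu 1 (all 10 in the plot of fold changes), and those of the other genes as counts or single values. As αGlu 1 was picked out by its likeness to Ctr in these same data, leaving it out favours larger differences and a smaller spread. All p-values and intervals without αGlu 1 are thus descriptions and no independent support. Every pair of libraries differed by more than sampling noise. The study states that the 3 samples of a group were independent experiments.

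With all 6 libraries, none of the 10 genes differed between αGlu and Ctr at the threshold used, an adjusted p under 0.1 in edgeR's quasi-likelihood test with an absolute log2 fold change above 1, a rule that also called 0 of 11933 genes tested (0%). All 10 passed the filter on low counts. At an unadjusted p under 0.05, Rnase4 alone was higher in αGlu, where 12.7% of all genes tested were, and 0 of the 10 were lower, where 11.9% of all genes were. CPM values of the groups did not overlap for Rnase4 and Rnaset2b, both higher in αGlu, against 14.2% of all genes in that direction. None of the 10 was lower in αGlu without overlap, against 15.9% of all genes. The lowest adjusted p among the 10 was 0.189 and that of all genes 0.149. Their median log2 fold change was 0.11, beside 0.016 for all genes tested, and their median absolute log2 fold change was 0.22, beside 0.24. DESeq2, which tested 13742 genes and called 8.13% of them with the same threshold and 15.8% without the limit on fold change, called none of the 10 by either rule, with 2 of them at an unadjusted p under 0.05 (Rnase4 and Rnh1).

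**Figure D1:**
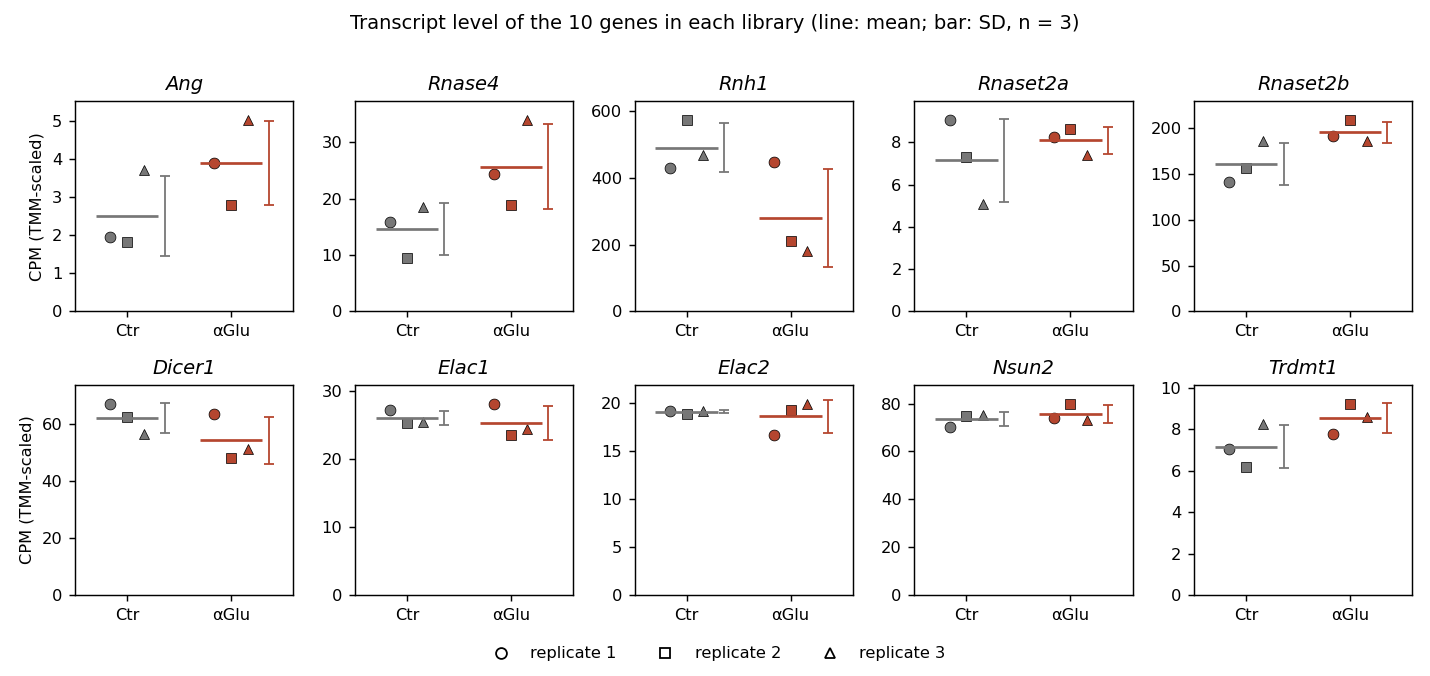
CPM scaled with TMM factors (y axis, linear from 0, one scale per panel) of the 10 genes in the 3 Ctr and 3 αGlu libraries (x axis). Points are libraries, with the marker shape giving the replicate number, the line is the mean and the bar the SD. Rnase4 lay at 9.45 to 18.5 CPM in Ctr and 18.8 to 33.9 in αGlu, and Rnh1 of αGlu 1 (448 CPM) sat among the Ctr libraries while αGlu 2 and αGlu 3 were at 210 and 180.

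Levels of different genes can be compared only per transcript length, for which the TPM values of the authors, scaled for length, were used. In Ctr, Rnh1 stood highest by far at 569 ± 77.9 TPM (SD, n = 3). Rnaset2b followed at 109 ± 14.4, Nsun2 at 38.6 ± 0.83, Rnase4 at 26.9 ± 8.61, Elac2 at 16.6 ± 0.38, Elac1 at 15.8 ± 0.92 and Dicer1 at 11.2 ± 1.117 TPM. Rnaset2a at 6.47 ± 1.88, Ang at 6.27 ± 2.58 and Trdmt1 at 5.63 ± 0.82 TPM were the lowest. Neighbours in this order had separate ranges over the 3 libraries, except for Elac2 and Elac1, Rnaset2a and Ang, and Ang and Trdmt1. In αGlu the order was Rnh1 at 341 ± 169, Rnaset2b at 140 ± 8.55, Rnase4 at 50.3 ± 15.98, Nsun2 at 42.2 ± 2.24, Elac2 at 17.2 ± 2.04, Elac1 at 16.3 ± 1.21, Ang at 10.4 ± 3.15, Dicer1 at 10.3 ± 1.32, Rnaset2a at 7.74 ± 0.49 and Trdmt1 at 7.13 ± 0.73 TPM. There Rnase4 overlapped with Nsun2, Elac2 with Elac1, Ang with Dicer1, and Rnaset2a with Trdmt1. The transcript of the inhibitor was thus the most abundant and that of angiogenin among the least abundant of the 10 in either group.

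Rnase4, the neighbour of Ang, had the lowest p of the 10 genes. It was read 347, 226 and 398 times in Ctr 1, 2 and 3 and 425, 598 and 923 times in αGlu 1, 2 and 3, or 15.8, 9.45 and 18.5 CPM against 24.4, 18.8 and 33.9 CPM. Every αGlu library was above every Ctr library, although αGlu 2 exceeded Ctr 3 only slightly. The Ctr mean was 14.6 ± 4.63 CPM and the αGlu mean 25.7 ± 7.60 CPM (SD, n = 3), a fold change of 1.76 with a 95% interval of 1.04 to 3.01. On the log2 scale this was 0.82 (SE 0.31) with an adjusted p of 0.189 by edgeR's quasi-likelihood test, so it did not pass the adjusted threshold. With 1 library left out the log2 fold change lay between 0.57 and 1.02. The unadjusted p, 0.0402 with all libraries, was above 0.05 without Ctr 1 (0.0735), without Ctr 2 (0.0917) or without αGlu 3 (0.122). By the same test it was below 0.05 without Ctr 3 (0.0349), αGlu 1 (0.0414) or αGlu 2 (0.0237). With the replicate number as a block, which the labels do not state to mark pairs, it was 0.0018 (adjusted p 0.131).

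Ang had few reads, 43, 44 and 80 in Ctr 1, 2 and 3 and 68, 89 and 137 in αGlu 1, 2 and 3. In CPM these were 1.95, 1.84 and 3.71 against 3.90, 2.80 and 5.02. Ctr 3 was nearly as high as αGlu 1 and above αGlu 2, so the groups overlapped. The Ctr libraries averaged 2.50 ± 1.05 CPM and those of αGlu 3.91 ± 1.11 CPM (SD, n = 3). The log2 fold change was 0.64 (SE 0.37, 95% interval -0.25 to 1.54) with an adjusted p of 0.302, and it ranged from 0.42 without αGlu 3 to 1.04 without Ctr 3. As folds, this interval runs from 0.839 to 2.91, so neither a higher nor a lower level of the angiogenin transcript was shown with these libraries.

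Reads of Ang and Rnase4 can be shared, because the exons of the genes overlap in 219 bases, 104 at chr14:51091150-51091253 and 115 at chr14:51096359-51096473. These make up 18.2% of the exonic bases of Ang and 13.4% of those of Rnase4 in GENCODE M21. How the authors assigned reads that fit both genes was not given in the sources used here. When the reads of both genes were added up, the log2 fold change was 0.80 (SE 0.31, 95% interval 0.033 to 1.56, adjusted p 0.194 by edgeR), close to that of Rnase4, which supplied most reads. The ratio of Ang to Rnase4 in TPM was 0.169, 0.265 and 0.274 in Ctr 1, 2 and 3 and 0.218, 0.203 and 0.202 in αGlu 1, 2 and 3. All 3 αGlu values lay inside the Ctr range, and the mean log2 ratio differed by -0.15 (exact two-sided permutation test, p = 0.4, adjusted p 0.667 over 5 ratios). The difference of 3 against 3 libraries cannot give a p below 0.1 in this test. No difference in the proportion of the 2 transcripts was thus detected.

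Rnh1, which encodes the ribonuclease inhibitor that binds angiogenin and other RNase A proteins, split the αGlu group. Its level was 429, 572 and 469 CPM in Ctr 1, 2 and 3 and 448, 210 and 180 CPM in αGlu 1, 2 and 3. αGlu 1 lay between Ctr 1 and Ctr 3, while αGlu 2 and αGlu 3 were below every Ctr library. Ctr averaged 490 ± 73.8 CPM and αGlu 279 ± 147 CPM (SD, n = 3). The log2 fold change with all libraries was -0.81 (SE 0.37, 95% interval -1.71 to 0.091), with an adjusted p of 0.230 by edgeR. Without αGlu 1 it was -1.33 (SE 0.15, 95% interval -1.70 to -0.96) with an adjusted p of 0.00108, and the gene was called. By that rule 10.5% of the 12340 genes then tested were called lower and 8.05% higher. Without αGlu 3 the log2 fold change was -0.57. In bulk RNA, fewer cells of a kind with a high level and less RNA per cell cannot be told apart.

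The ratio of Ang to Rnh1 compares the transcript of the nuclease with that of its inhibitor. In TPM it was 0.00984, 0.00694 and 0.0171 in Ctr 1, 2 and 3, and 0.0188, 0.0288 and 0.0603 in αGlu 1, 2 and 3. Every αGlu library had a higher ratio than every Ctr library, but αGlu 1 exceeded Ctr 3 only narrowly. The Ctr mean of the log2 ratio was -6.57 ± 0.65 and the αGlu mean -4.97 ± 0.85 (SD, n = 3), a difference of 1.602 or 3.04-fold. The exact two-sided permutation test gave p = 0.1, the smallest value that 3 against 3 libraries allow, and 0.5 after adjustment over the 5 ratios. Leaving out 1 library moved the difference between 1.14 and 1.98. In all 6 libraries the inhibitor transcript outnumbered the angiogenin transcript, by TPM.

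**Figure D2:**
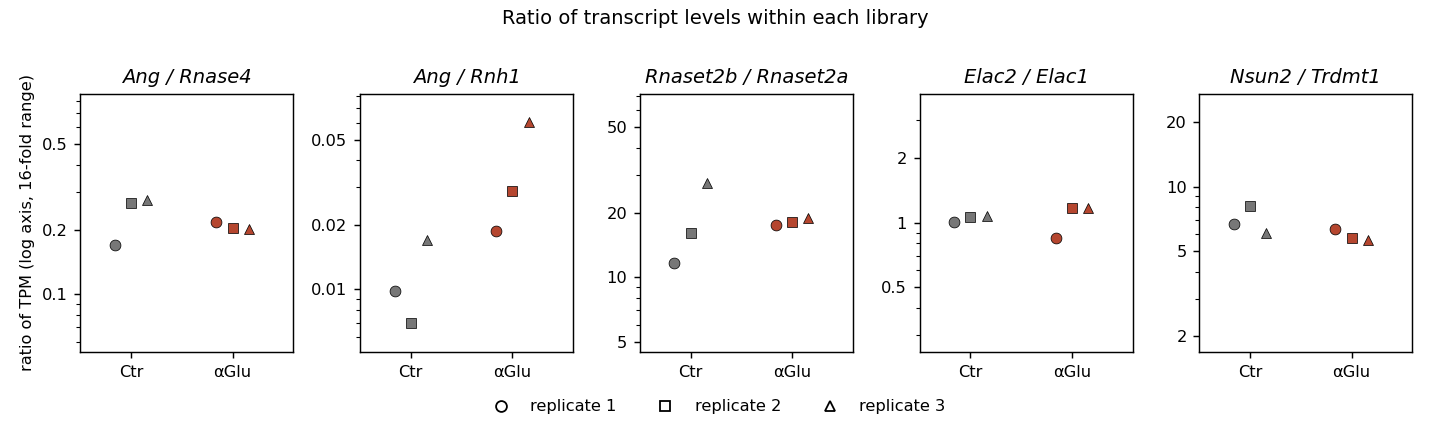
Ratio of TPM of 2 genes within each library (y axis, log scale, spanning the same 16-fold range in each panel) for the Ctr and αGlu libraries (x axis). Points are libraries, with the marker shape giving the replicate number. The groups are separate for Ang to Rnh1 (0.00694 to 0.0171 in Ctr, 0.0188 to 0.0603 in αGlu) and overlap for the other 4 ratios.

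Rnaset2a and Rnaset2b encode copies of RNase T2, the nuclease of lysosomes. Rnaset2b, at chr17:6970634-7011299 on the plus strand, was the second most abundant of the 10 transcripts. Its level was 141, 156 and 186.4 CPM in Ctr 1, 2 and 3 and 192, 208 and 186.5 CPM in αGlu 1, 2 and 3. The groups did not overlap, but Ctr 3 and αGlu 3 were nearly equal. Ctr averaged 161 ± 23.2 CPM and αGlu 196 ± 11.5 CPM (SD, n = 3), a log2 fold change of 0.28 (SE 0.13, 95% interval -0.034 to 0.59) with an adjusted p of 0.232 by edgeR. Rnaset2a, at chr17:8115445-8148097 on the minus strand, was far lower at 9.04, 7.31 and 5.104 CPM in Ctr 1, 2 and 3 and 8.26, 8.63 and 7.41 CPM in αGlu 1, 2 and 3. These groups overlapped, the log2 fold change was 0.18 (SE 0.22) with an adjusted p of 0.618, and it was -0.017 without Ctr 3.

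The split between the copies is uncertain. Of all stretches of 50 bases in the transcripts of Rnaset2a, 77.2% also occurred in transcripts of Rnaset2b, and 56.0% of those of Rnaset2b occurred in Rnaset2a. A read from such a stretch fits both copies. The ratio of Rnaset2b to Rnaset2a in TPM was 11.7, 16.05 and 27.4 in Ctr 1, 2 and 3, and 17.4, 18.1 and 18.9 in αGlu 1, 2 and 3. The αGlu values lay inside the wide Ctr range (difference of the log2 means 0.072, exact permutation test, p = 0.8, adjusted p 1). Without Ctr 1 the difference turned to -0.21. With the reads of the copies added up, the log2 fold change was 0.27 (SE 0.12, 95% interval -0.018 to 0.57) with an adjusted p of 0.218 by edgeR, about that of Rnaset2b alone.

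Dicer1 (chr12:104687742-104751952, minus strand) encodes the nuclease that makes microRNAs from hairpin precursors. It was measured at 67.0, 62.5 and 56.5 CPM in Ctr 1, 2 and 3 and at 63.6, 48.1 and 51.1 CPM in αGlu 1, 2 and 3. As for Rnh1, αGlu 1 fell within the Ctr range and the other αGlu libraries below it. Means were 62.0 ± 5.29 and 54.3 ± 8.21 CPM (SD, n = 3), and the log2 fold change was -0.19 (SE 0.13, 95% interval -0.51 to 0.12, adjusted p 0.366 by edgeR). Without αGlu 1 it was -0.33 (SE 0.093, 95% interval -0.55 to -0.10) with an adjusted p of 0.0341, which passed the adjusted threshold at a difference too small for the limit on fold change. At an adjusted p under 0.1 and any fold change, 25.6% of the genes tested without αGlu 1 were lower and 23.5% higher. Of the 10 genes, Dicer1 and Rnh1 were among the lower and Rnase4 (0.85, SE 0.33, adjusted p 0.0884) among the higher.

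**Figure D3:**
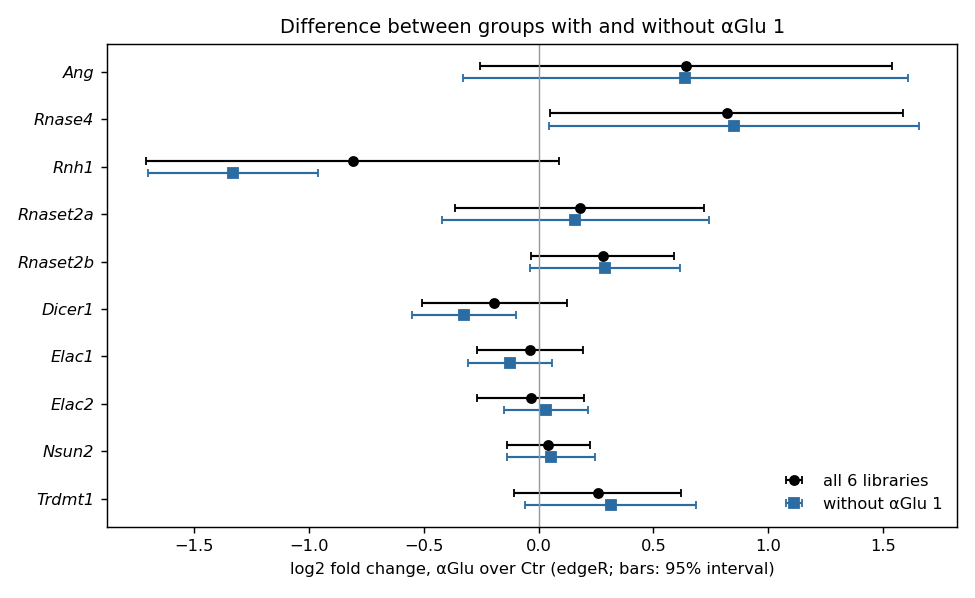
Log2 fold change of αGlu over Ctr (x axis) for each of the 10 genes (y axis) by edgeR's quasi-likelihood fit, with all 6 libraries (black circles) and without αGlu 1 (blue squares). Bars are 95% intervals and the vertical line marks no difference. Leaving out αGlu 1 moved Rnh1 from -0.81 to -1.33 and narrowed its interval, while Ang stayed at 0.64 and Rnase4 went from 0.82 to 0.85.

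The enzymes that remove the 3′ trailer from tRNA precursors had nearly the same levels in both groups. Elac2 (chr11:64979038-65002069, plus strand), which encodes the long form of tRNase Z that acts in nucleus and mitochondria, stood at 19.2, 18.9 and 19.2 CPM in Ctr 1, 2 and 3 and at 16.7, 19.3 and 19.9 CPM in αGlu 1, 2 and 3. For Elac2 the log2 fold change came to -0.035 (SE 0.095, 95% interval -0.27 to 0.20, adjusted p 0.825 by edgeR), so a change larger than about 1.15-fold up or 0.831-fold down was outside the interval. Elac1 (chr18:73735038-73754479, minus strand), which encodes the short form, stood at 27.2, 25.3 and 25.5 CPM in Ctr 1, 2 and 3 and at 28.1, 23.5 and 24.4 CPM in αGlu 1, 2 and 3. The log2 fold change of Elac1 was -0.039 (SE 0.095, 95% interval -0.27 to 0.19, adjusted p 0.804). Both signs turned to above 0 when libraries were scaled by size alone, with 0.054 for Elac2 and 0.041 for Elac1, so no direction can be given. The ratio of Elac2 to Elac1 in TPM was 1.01, 1.07 and 1.08 in Ctr 1, 2 and 3 and 0.849, 1.17 and 1.17 in αGlu 1, 2 and 3. The αGlu libraries lay on both sides of the Ctr range (difference of the log2 means 0.0016, exact permutation test, p = 1, adjusted p 1).

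Of the methyltransferases that protect tRNA, Nsun2 (chr13:69533746-69635780, plus strand) had the smallest standard error of the 10 genes. It lay at 70.2, 75.0 and 75.2 CPM in Ctr 1, 2 and 3 and at 74.2, 79.8 and 73.1 CPM in αGlu 1, 2 and 3. The log2 fold change was 0.043 (SE 0.073, adjusted p 0.722 by edgeR), and its 95% interval of -0.14 to 0.22 covers folds from 0.910 to 1.17. Trdmt1 (chr2:13509014-13544668, minus strand), whose product methylates a cytosine near the anticodon of a few tRNAs, was lower in level at 7.04, 6.19 and 8.26 CPM in Ctr 1, 2 and 3 and 7.80, 9.22 and 8.62 CPM in αGlu 1, 2 and 3. Ctr 3 was above αGlu 1, so the groups overlapped, and the log2 fold change was 0.26 (SE 0.15, 95% interval -0.11 to 0.62, adjusted p 0.307). The ratio of Nsun2 to Trdmt1 in TPM was 6.66, 8.10 and 6.09 in Ctr 1, 2 and 3 and 6.36, 5.78 and 5.67 in αGlu 1, 2 and 3. Only αGlu 1 lay above the lowest Ctr value (difference of the log2 means -0.22, exact permutation test, p = 0.2, adjusted p 0.5).

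Other genes of tRNA cleavage and maturation were read as 6 lists, chosen by function. None of their 60 tested genes passed the adjusted threshold in edgeR's quasi-likelihood test with all libraries. At an unadjusted p under 0.05 they held 10 genes in all (16.7%, beside 24.7% of all genes tested), which moved between 3 and 24 when 1 library was left out. DESeq2 with all libraries gave 8 of 61 list genes an adjusted p under 0.1 (13.1%, beside 15.8% of all genes). Past the limit on fold change it called 2 of them, Rnase6 (log2 fold change -2.37, adjusted p 0.0147) and Ang2, which had 6, 3 and 3 reads in Ctr 1, 2 and 3 and none in αGlu. Without αGlu 1, edgeR gave 24 of the 60 an adjusted p under 0.1 (40.0%, beside 49.1% of all genes), 15 higher and 9 lower. The genes called with the limit on fold change were then 4, namely Rnase2a, Rnase6, Ear2 and Ago2, the last named after its values were seen. RNase P and MRP trim the 5′ leader of tRNA and cut ribosomal RNA precursors, and 13 of their 14 genes were tested. With all libraries, 1 was higher and 1 lower at an unadjusted p under 0.05, where 12.7% and 11.9% of all genes tested were. The median log2 fold change in RNase P and MRP was 0.060. Pop1, the large shared subunit of both, differed by -0.49 in log2 units (SE 0.18, adjusted p 0.178), and -0.65 without αGlu 1 (adjusted p 0.0162). Hsd17b10, a subunit of the mitochondrial RNase P, had 0.67 (SE 0.23, adjusted p 0.174), and 0.89 without αGlu 1 (adjusted p 0.000688). Among 14 genes of tRNA splicing and export, 1 was higher and 0 were lower at the same unadjusted p, with a median of 0.17. Rtcb, the ligase that joins tRNA exons, had 0.30 (SE 0.10, adjusted p 0.168), and Xpot, the tRNA exporter, 0.23 (SE 0.11, adjusted p 0.236). These medians stand beside 0.016 for all genes tested.

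Of the 9 tested partners of Dicer and Argonautes, 2 were higher and 1 was lower at an unadjusted p under 0.05, with a median log2 fold change of -0.078. At that p, 12.7% of all genes tested were higher and 11.9% lower. Tarbp2, which encodes a double-stranded RNA-binding partner of Dicer, lay at 26.4, 30.4 and 30.3 CPM in Ctr 1, 2 and 3 and at 33.7, 51.3 and 59.8 CPM in αGlu 1, 2 and 3. The αGlu libraries were all above Ctr, most of all αGlu 2 and αGlu 3, and the log2 fold change was 0.73 (SE 0.21, adjusted p 0.159 by edgeR). Without αGlu 1 it was 0.93 (adjusted p 0.000905), and by DESeq2 with all libraries 0.73 (adjusted p 0.0393). For Dgcr8, the partner of Drosha, it was -0.33 (SE 0.10, adjusted p 0.161). In a list of 3 other nucleases, Slfn8, of the Schlafen family, had a value of 0.75 (SE 0.38, adjusted p 0.258). In the 18 genes of other tRNA modification enzymes, 0 were higher and 1 was lower at the same unadjusted p, with a median of 0.12. Trmt61a, the catalytic subunit of a tRNA adenosine methyltransferase, had 14.99, 16.1 and 15.5 CPM in Ctr 1, 2 and 3 and 12.1, 9.54 and 7.996 CPM in αGlu 1, 2 and 3, without overlap (log2 fold change -0.65, SE 0.16, adjusted p 0.156). For Trmt61a the value was -0.83 without αGlu 1 (adjusted p 0.00221) and -0.67 by DESeq2 with all libraries (adjusted p 0.0184). Rtcb, Xpot, Dgcr8 and Ctu2 also had an adjusted p under 0.1 without αGlu 1, and Slfn8 did not (adjusted p 0.198). Ctu2, which takes part in thiolation of wobble uridines, had 0.31 (SE 0.13, adjusted p 0.215).

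Ang and Rnase4 belong to the RNase A family. Of 17 other genes of this family, 3 had enough reads to be tested, and these had lower values in αGlu. At an unadjusted p under 0.05, 2 of them were lower, where 11.9% of all genes tested were. All 3 were lower without overlap in CPM, against 15.9% of all genes. Rnase2a (chr14:51255262-51256112, minus strand), an eosinophil-associated ribonuclease of mice, had 822, 683 and 844 reads in Ctr 1, 2 and 3 and 149, 0 and 4 reads in αGlu 1, 2 and 3. Rnase6 (chr14:51123908-51132187, plus strand), an antimicrobial ribonuclease of myeloid cells, was measured at 8.13, 9.07 and 17.2 CPM in Ctr 1, 2 and 3 and at 4.24, 0.504 and 1.98 CPM in αGlu 1, 2 and 3. For both genes every αGlu library was below every Ctr library, and αGlu 1 was nearest to Ctr. Their log2 fold changes were -3.71 (SE 1.52, adjusted p 0.202) and -2.40 (SE 0.73, adjusted p 0.1603) by edgeR. Ear2 (chr14:44102654-44103534, plus strand), the third, chosen for mention after its values were seen, had 156, 139 and 156 CPM in Ctr 1, 2 and 3 and 56.8, 1.48 and 1.28 CPM in αGlu 1, 2 and 3. The difference for Ear2 was -2.94 in log2 units (SE 1.46, adjusted p 0.256). Of its stretches of 50 bases, 41.5% occur in other genes, most often in Ear10. The log2 fold changes of Rnase6 and Ear2 without αGlu 1 were -3.24 (adjusted p 0.00693) and -6.76 (adjusted p 4.23e-06). That of Rnase2a, -8.91 (adjusted p 5.23e-05), rests on 0 and 4 reads and depends on the prior count, and with all libraries its value includes the 0 reads of αGlu 2 too. Whether Ang and Rnase4 differ from these genes in their response was not tested.

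Markers of other cells were read beside these values. Of the 4 eosinophil markers, Siglecf had 8.72, 6.81 and 13.1 CPM in Ctr 1, 2 and 3 and 3.67, 0.252 and 0.147 CPM in αGlu 1, 2 and 3, so it was lower in the same libraries as the 3 RNase A genes. The granule genes Epx and Prg2 stayed at or under 0.287 and 1.17 CPM in every library, and Ccr3 was between 4.13 and 21.2 CPM. The sum of the 4 ranged from 18.9 to 25.5 CPM in Ctr and from 8.83 to 21.3 CPM in αGlu. The sum of the 9 neutrophil markers ranged from 107 to 160 CPM in Ctr and from 186 to 609 CPM in αGlu, nearly all of it Csf3r, while Ly6g and Retnlg had no read. The 6 lymphocyte markers summed to at most 0.346 CPM, the 5 of dendritic cells to at most 2.22, the 5 of mast cells and basophils to at most 3.79, the 6 of fibroblasts to at most 7.18 and the 4 of endothelial cells to at most 56.3 CPM, in the last mostly Kdr. The part of such markers in the values of the 10 genes was not tested.

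**Figure D4:**
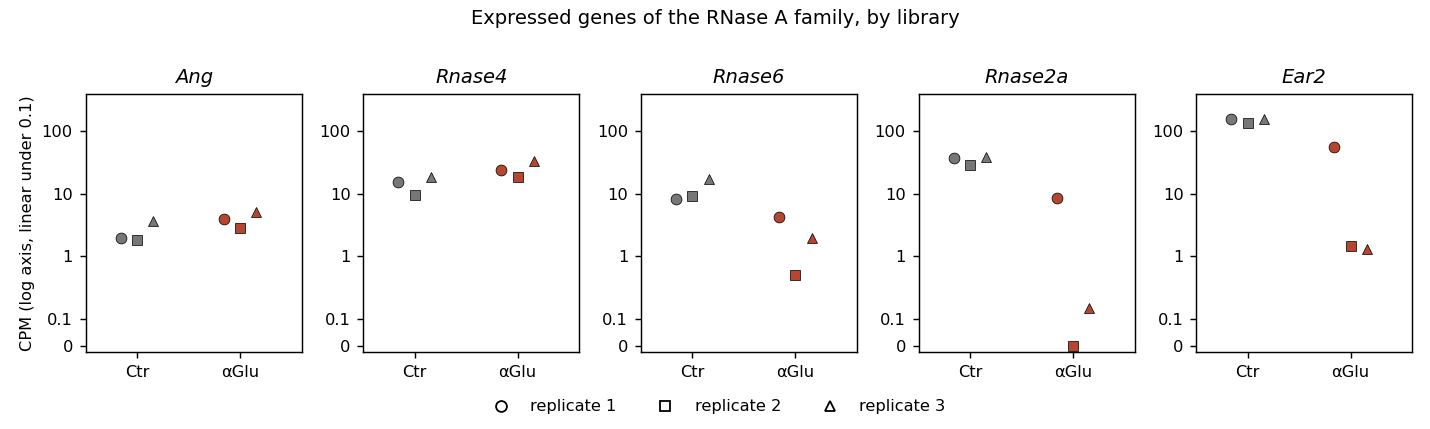
CPM (y axis, log scale, linear under 0.1 so that 0 can be shown) of the 5 genes of the RNase A family with enough reads, in the Ctr and αGlu libraries (x axis). Points are libraries, with the marker shape giving the replicate number. Rnase4 was above the Ctr libraries in all 3 αGlu libraries and Ang overlapped between the groups, whereas Rnase6, Rnase2a and Ear2 were below them in all 3 αGlu libraries, with Rnase2a at 0 reads in αGlu 2.

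Genes with the pattern most like that of each of the 10 over the 6 libraries were found by the mean absolute difference in centred log2 CPM, among 8392 or 8393 genes of sufficient level. For Ang these were Fgd2 (0.125), Maf (0.186) and Wwp1 (0.190), and for Rnase4 Maf (0.126), Wwp1 (0.174) and Nfxl1 (0.253). Maf and Wwp1 were thus near both genes of the shared locus. For Rnh1 the nearest were Map4k3 (0.0606), Anpep (0.0699) and Lat2 (0.0705), for Rnaset2b Erlec1 (0.0304), and for Dicer1 Fubp1 (0.0229). The nearest was Plec (0.0702) for Rnaset2a, Cox14 (0.00832) for Elac1, Ppm1a (0.0153) for Elac2, Psma7 (0.0150) for Nsun2 and Exosc9 (0.0404) for Trdmt1. These are descriptions over 6 points, in log2 units, with no test.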

How the data were processed

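Total RNA of the 6 BMDM libraries was turned into stranded mRNA libraries and sequenced. For annotation and normalization the authors used version 5.1 of an analysis portal from QIAGEN. The submitters' processing notes name the build GRCm38, while aligner, gene models and the rule for ambiguous reads are not given in the sources used here. The deposited counts are whole numbers of exon reads per gene, not normalized. RPKM values, deposited beside them and scaled by the authors for length and depth, were not tested. The deposited TPM values were used for levels between genes and for ratios. A further deposited column, CPM by the authors' effective library size, is a signal and was not used. Each of the 24 value columns carries the name of a library, and 1 row without a gene name was left out.

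Counts were filtered with filterByExpr (minimum count 10, minimum total count 15), scaled with TMM factors and fitted with the group as the only term by edgeR 4.0.16 in R 4.3.3. Tests were two-sided and Benjamini-Hochberg adjusted over 11933 genes. CPM values are counts per TMM-scaled library size. Log2 CPM of the correlations and likeness had a prior count of 2. Ratios were tested by exact permutation, adjusted over the 5 ratios. Alternatives were DESeq2 1.42.0, limma-voom (limma 3.58.1), RLE factors, no scaling factor, 2 other filters on low counts, the replicate number as a block, a pseudocount of 0.5 or counts for the ratios, and each library left out. The quasi-likelihood fit of edgeR, and no other model, was tested on simulated data whose spread was taken from the Ctr libraries.

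The 10 genes, the 6 lists, the 8 marker lists and the naming rule were chosen with earlier results of these data known. The rule named all 10 genes, the 2 genes with the smallest p in each list, and for each gene the 3 most alike in pattern among genes whose mean log2 CPM reached 3, of which the nearest are given. The values of 1 listed gene are not reported here. Positions and exon overlap are from GENCODE M21 (GRCm38), start windows from RefSeq.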

Additional observations from a re-analysis of the deposited data

How the results depend on the processing

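Values with 3 libraries a group are limited by the spread between libraries. Relative to the mean, this spread was wider in αGlu for Rnh1 and wider in Ctr for Ang and Rnaset2a. Ang, Rnaset2a and Trdmt1 also had few reads. The call of 0 genes by edgeR's quasi-likelihood test changed to 1117 with DESeq2, to 899 with the likelihood-ratio test of edgeR, which was added once the data had been seen, and to 0 to 2290 with 1 library left out, with 2290 without αGlu 1. Of the 10 genes, 0 had an adjusted p under 0.1, and 0 to 3 with 1 library left out (3 without αGlu 1). At an unadjusted p under 0.05, 1 of the 10 became 2 with DESeq2, 2 with the likelihood-ratio test (Rnh1 and Rnase4 in both), 2 with library size alone (Rnase4 and Rnaset2b) and 0 to 3 with 1 library left out. It was 3 without Ctr 3 (Rnase4, Ang and Rnaset2b) or αGlu 1, and 0 without Ctr 1, Ctr 2 or αGlu 3. The 10 genes of the lists at that p became 3 to 24. Fits with 1 library left out also rest on fewer libraries, and αGlu 1 was singled out after its likeness to Ctr had been seen. The causes of these changes were not tested.

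Signs turned where values lay near 0. With library size alone Elac1 was at 0.041 and Elac2 at 0.054. With 1 library left out, Rnaset2a ranged from -0.017 (without Ctr 3) to 0.39, Elac2 from -0.083 to 0.033 (without αGlu 1) and Elac1 from -0.12 to 0.016 (without αGlu 2, and 0.0035 without Ctr 1). The ratio of Elac2 to Elac1 ranged from -0.078 to 0.16 (below 0 without Ctr 1, αGlu 2 or αGlu 3) and that of Rnaset2b to Rnaset2a from -0.21 to 0.41. The sums of gene pairs were likewise added once the data had been seen.

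The libraries share replicate numbers across groups. The labels do not say whether equal numbers mark one experiment, so the main fit held no block. For the fragment's level after this transfection, the study used a paired t test. The correlation across genes between deviations from the group mean was, for libraries with one number, 0.0764, 0.0646 and 0.154. Each correlation was higher than that of either library with any other number, a hint from the data and not the design. With the replicate number as a block 17 genes were called, none of them among the 10. At an unadjusted p under 0.05, there were 2 of the 10, Rnase4 (log2 fold change 0.83, SE 0.11, adjusted p 0.131 by edgeR) and Ang (0.67, SE 0.21, adjusted p 0.187). The exact sign-flip test of the ratio of Ang to Rnh1 gave p = 0.25, the smallest that 3 pairs allow.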
